A study of Saccharomyces cerevisiae YPS1009 with 40 samples.

Results

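The 36 genes described here encode the proteasome of Saccharomyces cerevisiae and 3 proteins that assemble it, cap it or activate its transcription. They comprise 7 genes of the alpha rings and 7 of the beta rings of the 20S core particle, 6 ATPases and 4 other subunits of the base of the 19S regulatory particle (ubiquitin receptors included), 9 subunits of its lid, the assembly chaperone gene UMP1, the alternative activator gene BLM10 and the transcription activator gene RPN4. They were chosen by systematic name from the 6714 genes of the count table, with no measured value in the rule. Earlier results of these data were known when they were chosen. All 36 were among the 5864 genes that passed a filter of at least 10 counts in at least 2 libraries, and the lowest count of any of them in any library was 9.

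RNA-seq of rRNA-depleted total RNA was done on 5 haploid MATa strains of YPS1009, a wild isolate from oak soil, to follow transcripts as the cultures exhausted glucose and entered quiescence. The strains were euploid (AGY731) or carried 1 duplicated chromosome: IV in YPS1009_Chr4 (AGY1835), XII in YPS1009_Chr12 (AGY735), XIV in YPS1009_Chr14 (AGY1845) and XV in YPS1009_Chr15 (AGY1839). Each was grown in YPD at 30 °C and sampled in log phase and on days 1, 3 and 7, with 2 biological replicate cultures in each of the 20 groups. By the study's strain list, the euploid strain and YPS1009_Chr12 carry hoΔ::HphMX and the other 3 carry ho-Δ1, so for those 3 the duplication and the ho allele cannot be told apart, and each karyotype is 1 strain. Glass beads were added in the RNA extraction of quiescent samples alone, and on which days is not given in the sources used here, so the later days and that step cannot be told apart either.

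The proteasome degrades proteins that carry ubiquitin chains. In its core particle, alpha rings gate the entry and beta rings hold the proteolytic sites, while the regulatory particle binds the chain, removes it, unfolds the substrate and threads it into the core. In yeast, the activator Rpn4 binds an element named PACE upstream of most proteasome genes and is itself a very short-lived substrate of the proteasome, and in non-dividing yeast cells proteasomes gather in cytoplasmic storage granules.

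The PACE element GGTGGCAAA was searched on both strands from 250 bases before to 50 bases after each start codon in the S288c genome (R64). Since the element is known to lie upstream of most proteasome genes, its share among the members describes them and tests nothing. It was found in 27 of the 36 genes (75%), in 4 of 28 other proteasome and ubiquitin pathway genes (14.3%) and in 72 of 6001 protein-coding genes (1.2%). Its first base lay between 84 and 183 bases before the start codon, on the strand of the gene in 19 of the 27. The element was not matched in these windows of the alpha-ring gene PRE5, the beta-ring gene PUP1, the regulatory particle genes RPN8, RPN10, RPN13 and SEM1, or in RPN4, UMP1 and BLM10. The same counts of 27 and 4 became 27 and 5 with the shorter motif GGTGGCAA, which the first contains and which 1.68% of all genes held. Printed here are the windows of 4 PACE-bearing genes and that of RPN4, whose product binds the element. Those 4 had the highest mean level per length over the log-phase libraries of all strains. Each window is given 5′ to 3′ on the strand of the gene, with the element in capitals. YPS1009 may differ from these S288c letters at single bases.
PRE3, chrX:434913-435212, plus strand: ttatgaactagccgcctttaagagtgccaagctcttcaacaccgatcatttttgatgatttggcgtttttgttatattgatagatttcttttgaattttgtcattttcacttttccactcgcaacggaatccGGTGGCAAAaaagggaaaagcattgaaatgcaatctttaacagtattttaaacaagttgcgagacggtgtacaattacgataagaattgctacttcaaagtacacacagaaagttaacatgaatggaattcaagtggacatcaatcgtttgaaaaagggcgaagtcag
PUP3, chrV:349297-349596, minus strand: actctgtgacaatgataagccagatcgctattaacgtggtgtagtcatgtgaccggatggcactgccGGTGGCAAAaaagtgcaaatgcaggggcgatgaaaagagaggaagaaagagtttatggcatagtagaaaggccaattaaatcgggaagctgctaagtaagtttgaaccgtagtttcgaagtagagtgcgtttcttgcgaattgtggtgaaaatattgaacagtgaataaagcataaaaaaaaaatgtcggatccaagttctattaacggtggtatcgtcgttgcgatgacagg
PRE10, chrXV:1018697-1018996, minus strand: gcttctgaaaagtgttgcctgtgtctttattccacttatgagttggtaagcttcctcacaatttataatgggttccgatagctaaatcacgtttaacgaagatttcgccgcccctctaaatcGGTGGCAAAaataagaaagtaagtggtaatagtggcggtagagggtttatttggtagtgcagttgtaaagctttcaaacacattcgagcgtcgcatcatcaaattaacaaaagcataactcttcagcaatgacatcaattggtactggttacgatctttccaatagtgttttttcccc
PRE6, chrXV:255087-255386, plus strand: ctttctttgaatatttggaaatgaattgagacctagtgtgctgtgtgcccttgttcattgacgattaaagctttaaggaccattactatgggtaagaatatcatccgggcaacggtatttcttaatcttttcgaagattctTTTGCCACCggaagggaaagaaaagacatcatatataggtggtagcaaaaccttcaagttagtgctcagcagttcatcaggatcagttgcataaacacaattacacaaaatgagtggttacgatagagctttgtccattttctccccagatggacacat
RPN4, chrIV:416659-416958, minus strand: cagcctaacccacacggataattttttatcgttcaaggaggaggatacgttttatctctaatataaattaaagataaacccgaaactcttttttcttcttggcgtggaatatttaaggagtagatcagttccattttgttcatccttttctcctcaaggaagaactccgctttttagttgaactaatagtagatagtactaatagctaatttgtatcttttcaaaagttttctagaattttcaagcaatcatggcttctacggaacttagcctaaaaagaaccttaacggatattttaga
The element began 118 bases before the start codon of PRE3, 183 before that of PUP3 and 128 before that of PRE10. In PRE6 it lay on the other strand, so that the capitals there read as its reverse complement.

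The libraries held 4182717 to 7036849 counts in log phase, 1997415 to 3792145 on day 1, 1033073 to 2228477 on day 3 and 725316 to 2324046 on day 7, so that the later days are less precise. Every level below is in CPM, the gene's share of the TMM-scaled total of its library in ppm, and every difference is a log2 difference fitted over all 40 libraries by edgeR's quasi-likelihood test, called at a Benjamini-Hochberg adjusted p under 0.05 over the 5864 genes. Both are relative to the rest of the transcriptome and do not give amounts per cell, since the Sz. pombe spike-in scale was not used here. On that scale the paper reports that euploid cultures silenced their transcriptome after log phase and that aneuploids were defective in this. A gene said below to rise or fall thus changed its TMM-scaled level, which is not its share of all counts in the library. The TMM factors were 0.316 and 0.381 in the 2 YPS1009_Chr4 cultures of day 7, against 0.944 and 1.62 in euploid. The 36 genes together held 0.927% and 0.833% of counts in those YPS1009_Chr4 cultures, against 0.953% and 0.683% in euploid. A higher level can also go with fewer transcripts per cell. In each aneuploid strain the genes of the duplicated chromosome had a median log2 difference to euploid between 0.78 and 0.92 in log phase, as the strain names say. Over all genes, the 2 euploid cultures of day 7 differed more than those of any other group, with the 36 genes at a median of -1.02 in log2 in culture 2 against culture 1, and the 2 YPS1009_Chr12 cultures of that day differed by -1.05, so results of day 7 are also given without each euploid culture.

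**Figure D1:**
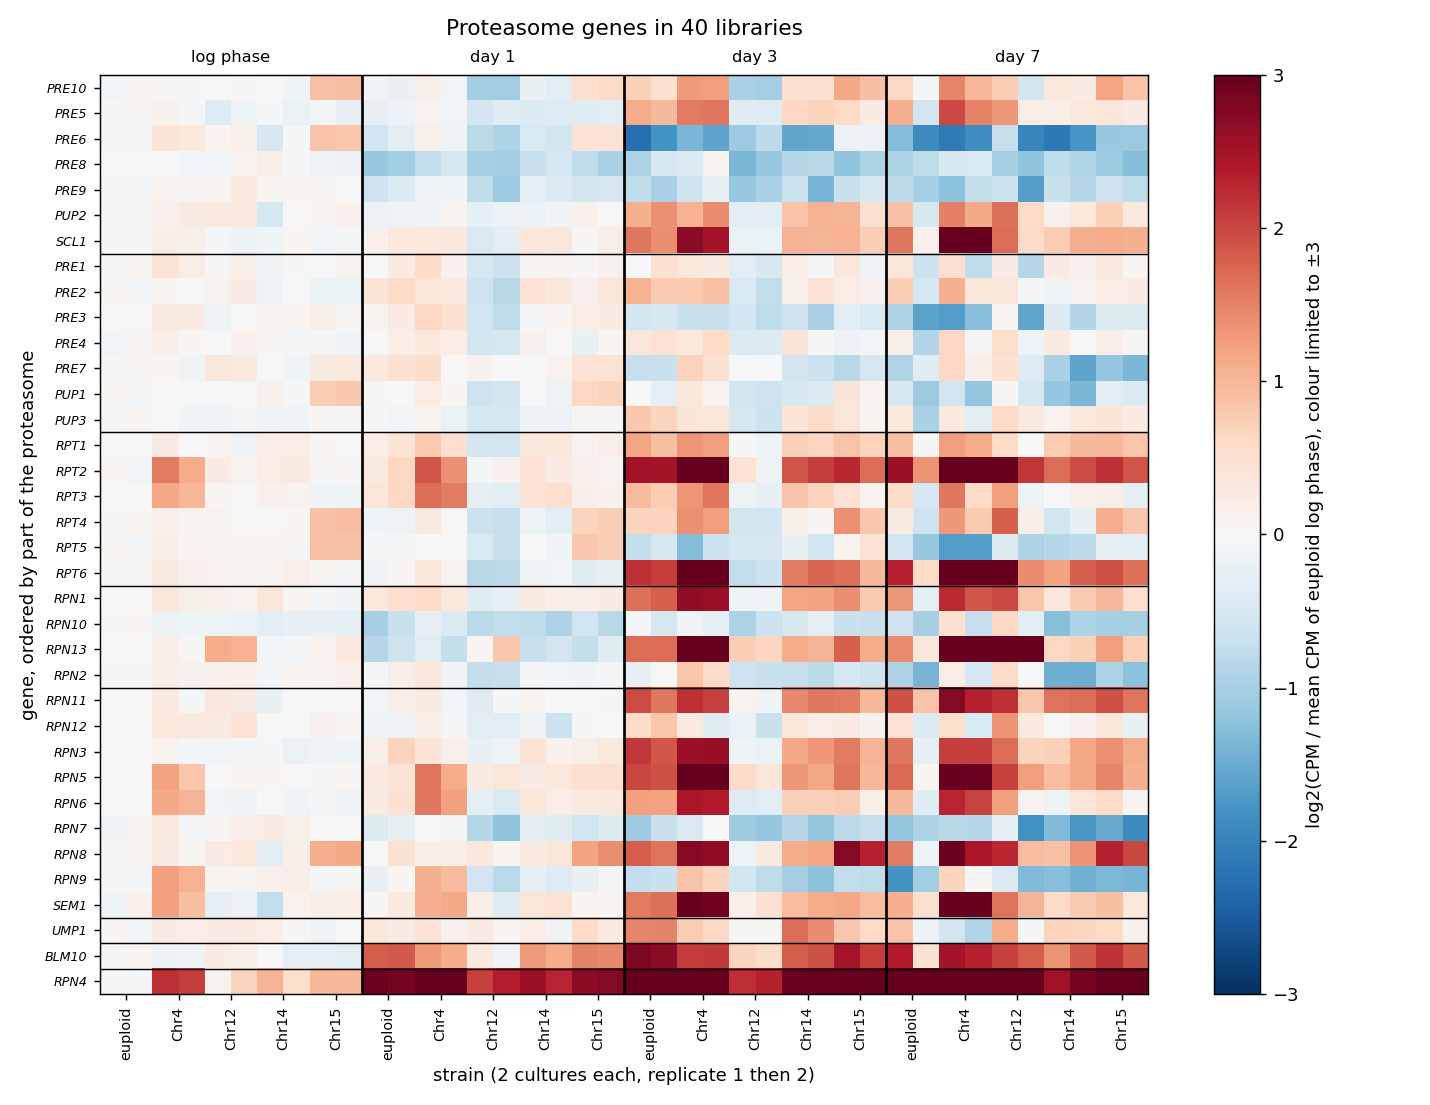
Colour shows log2 of the TMM-scaled CPM of each of the 36 genes (rows, ordered by role) in each of the 40 libraries (columns, by strain and time) over the mean of the 2 euploid log-phase cultures, with the scale limited to ±3. RPN4 and BLM10 stand above log phase in the later euploid libraries, PRE6 stands below it, and SCL1 and RPT2 keep near their log-phase shades in the day 3 columns of YPS1009_Chr12.

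In log phase the subunits of the 20S and 19S particles were at like levels per length of coding sequence. The mean CPM per kb over the 10 log-phase libraries was highest for PRE3 (199.9), the caspase-like catalytic subunit, followed by the beta subunit PUP3 (189.4) and the alpha subunits PRE10 (184.4) and PRE6 (169.7). It was lowest among subunits for RPN11 (78.6), the deubiquitinating enzyme of the lid, RPN12 (83.0), another lid subunit, and RPT1 (96.0), a base ATPase. By these means RPN4 (54.8 CPM per kb) and BLM10 (54.9 CPM per kb) lay below every subunit. The means include strains with an extra copy of some of these genes. RPT2 was at 75.7 and 68.5 CPM per kb in the 2 euploid cultures, among the lowest there, against 212.9 and 156.1 in YPS1009_Chr4. PRE10 and PRE6 had means of 158.2 and 141.6 in euploid and 293.5 and 253.9 in YPS1009_Chr15. In YPS1009_Chr4, RPN4 (115.1) lay above RPN11 (81.9). The SD over the 33 subunits of log2 CPM per kb was 0.307 to 0.501 across the log-phase libraries, with a median of 0.400.

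RPN4 (YDL020C), which encodes the activator Rpn4, was the member that changed most in euploid YPS1009. Its CPM was 43.1 and 40.8 in the 2 log-phase cultures, 322 and 308 on day 1, 661 and 570.3 on day 3 and 561 and 350.2 on day 7. Every later culture was thus above both log-phase cultures, with the highest values on day 3. RPN4 rose by 2.91 ± 0.33 (log2, SE) on day 1, 3.87 ± 0.34 on day 3 (14.7-fold) and 3.43 ± 0.34 on day 7 (edgeR quasi-likelihood, Benjamini-Hochberg adjusted p = 6.08e-09, 2.19e-11 and 2.38e-10).

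BLM10 (YFL007W), whose product caps the ends of the core particle in place of the regulatory particle, was at 356 and 382 CPM in log phase, 1299.9 and 1331 on day 1, 2578 and 2421 on day 3 and 1919 and 509 on day 7. All later cultures exceeded those of log phase, and the 2 of day 7 lay far apart. It rose by 1.83 ± 0.34 on day 1, 2.76 ± 0.35 on day 3 (6.78-fold) and 1.71 ± 0.34 on day 7 in log2. UMP1 (YBR173C), whose product guides maturation of the core and is degraded in the finished particle, was at 69.4 and 62.9 CPM in log phase, 85.4 and 78.5 on day 1, 181 and 186 on day 3 and 119.7 and 58.5 on day 7. It rose on day 3 by 1.47 ± 0.26 (edgeR quasi-likelihood, adjusted p = 9.43e-06), and its differences of 0.31 on day 1 and 0.39 on day 7 were not called.

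**Figure D2:**
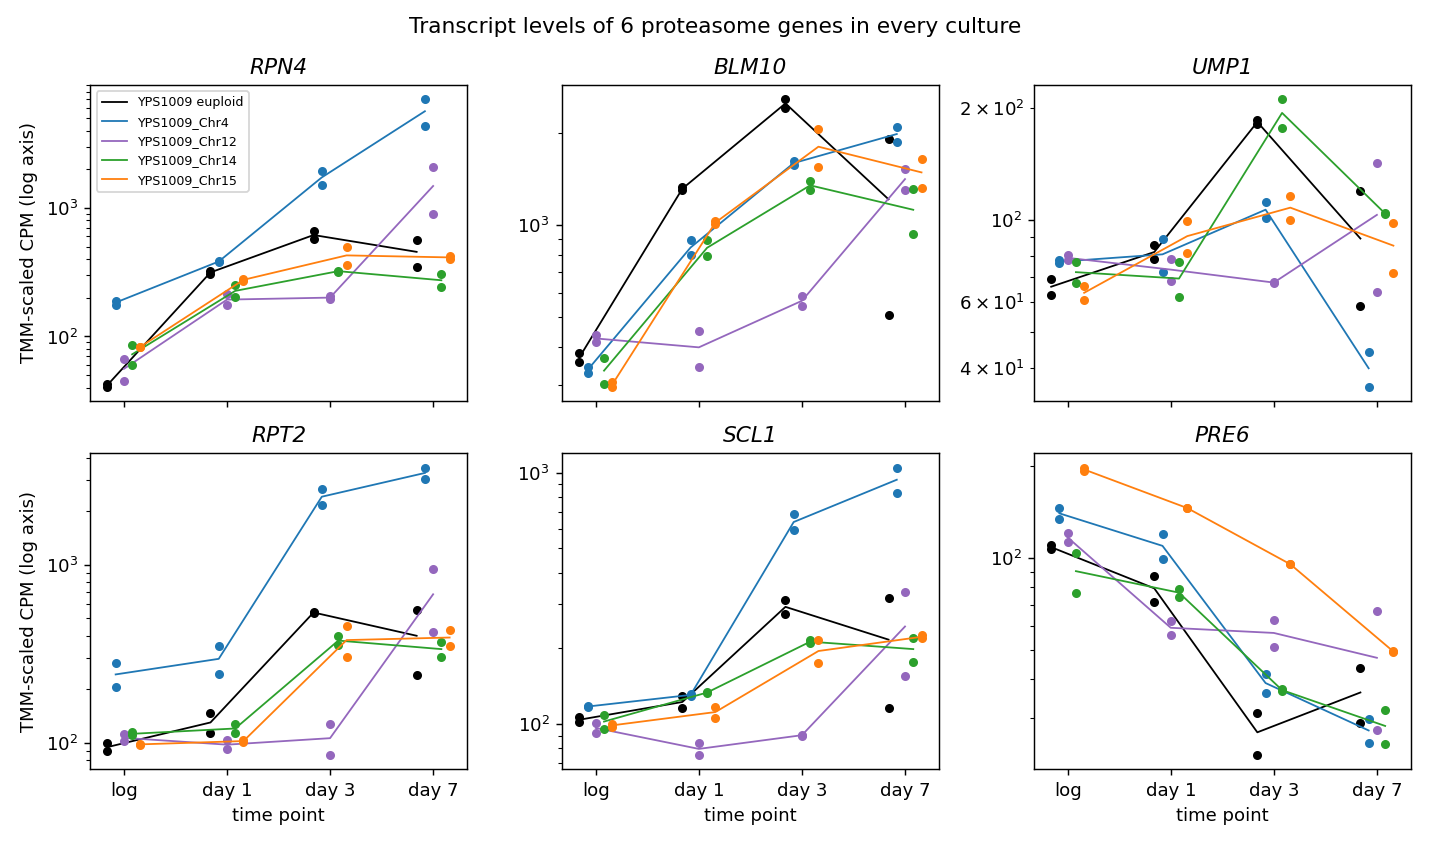
TMM-scaled CPM (log axis) of RPN4, BLM10, UMP1, RPT2, SCL1 and PRE6 in log phase and on days 1, 3 and 7, with 1 point for each culture, 1 colour for each strain and lines through the means of 2 cultures. Euploid RPN4 is between 308 and 661 CPM on the later days against 43.1 and 40.8 in log phase, while euploid PRE6 is lowest on day 3.

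On day 1 of the euploid time course few members moved: of 36, 2 were higher (background 34.3%) and 4 lower (35%), although many genes were called in each direction. Besides RPN4 and BLM10, the members that changed were lower: PRE8, an alpha subunit, fell by 1.09 ± 0.18, RPN10, a ubiquitin receptor, by 0.82 ± 0.25, RPN13, another ubiquitin receptor, by 0.73 ± 0.28 and PRE9, the alpha subunit yeast can live without, by 0.51 ± 0.22 (edgeR quasi-likelihood, adjusted p = 6.52e-06, 0.00455, 0.0212 and 0.0378). The next highest value, 0.50 for the base ATPase RPT3, was not called. The median over the members was 0.09 and that over all genes -0.00. Scaling by total counts gave 8 higher and 3 lower. A filter of at least 10 counts in every library left 2132 genes and 35 members and gave 2 higher and 21 lower. Each background, the share of all genes called, is that of the main fit. Counts under other settings, here and below, have no such share beside them and describe the stability of the call alone. Without log-phase culture 1 or 2 the counts were 2 and 2, and without day 1 culture 1 they were 2 and 1.

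On day 3, 23 members were higher (background 38.7%) and 7 lower (41.4%) than in log phase, and the subunits did not move together. Of the 7 alpha-ring genes, SCL1, PUP2, PRE5 and PRE10 rose and PRE6, PRE9 and PRE8 fell. SCL1 (YGL011C) was at 102 and 106 CPM in log phase and 312 and 273 on day 3, whereas PRE6 (YOL038W) was at 106 and 110.2 and then 22.7 and 31.1. The day 3 cultures of these subunits of 1 ring lay on opposite sides of their log-phase cultures, with a rise of 1.49 ± 0.30 for SCL1 and a log2 difference of -2.002 ± 0.27 for PRE6 (edgeR quasi-likelihood, adjusted p = 4.34e-05 and 7.20e-08). Of the 7 beta-ring genes, PRE2, the chymotrypsin-like catalytic subunit, rose by 0.92 ± 0.26 and PUP3 by 0.73 ± 0.24, and PRE7 fell by 0.67 ± 0.24. The other 4 beta-ring genes, among them the catalytic subunits PRE3 (-0.52) and PUP1 (-0.15), were not called.

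Of the 6 base ATPases, which unfold the substrate, RPT2, RPT6, RPT1, RPT3 and RPT4 rose and RPT5 fell by 0.62 ± 0.21 on day 3. RPT2 (YDL007W), the ATPase that opens the gate of the core, was at 99.5 and 90.04 CPM in log phase and 541 and 538 on day 3, and RPT6 (YGL048C) at 154 and 159.7 and then 721 and 658. Neither gene's day 3 cultures overlapped those of log phase, and they rose by 2.51 ± 0.34 and 2.14 ± 0.40. Of the other base genes, the scaffold subunit RPN1 rose by 1.72 ± 0.34 and RPN13 by 1.67 ± 0.28, while RPN2 (-0.11), the scaffold to which Rpn13 binds, and RPN10 (-0.28) were not called. Of the 9 lid genes, RPN3, RPN5, RPN11, RPN8, SEM1, RPN6 and RPN12 rose, by 0.70 to 2.0, and RPN7 and RPN9 fell, by 0.86 ± 0.27 and 0.70 ± 0.23. The class medians on day 3 were 0.61 for the alpha ring, 0.25 for the beta ring, 0.95 for the ATPases, 0.78 for the other base genes and 1.62 for the lid.

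The median of all 36 members on day 3 was 0.88 and that of all genes -0.16. The number of members in each direction depended on the scaling: DESeq2's size factors gave 18 higher and 11 lower with a median of 0.51 over members and -0.53 over all genes, and total counts gave 20 higher and 10 lower with 0.64 and -0.39. With the filter of 10 counts in every library, which removes genes low at any time, the split turned to 6 higher and 19 lower, with medians of -0.55 and 0.04. Without day 3 culture 1 the count was 20 higher and 2 lower, so 5 fewer members were called lower. The changes of RPN4, BLM10 and RPT2 kept their signs under every alternative run, as did that of PRE6, which the filter in every library left out.

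**Figure D3:**
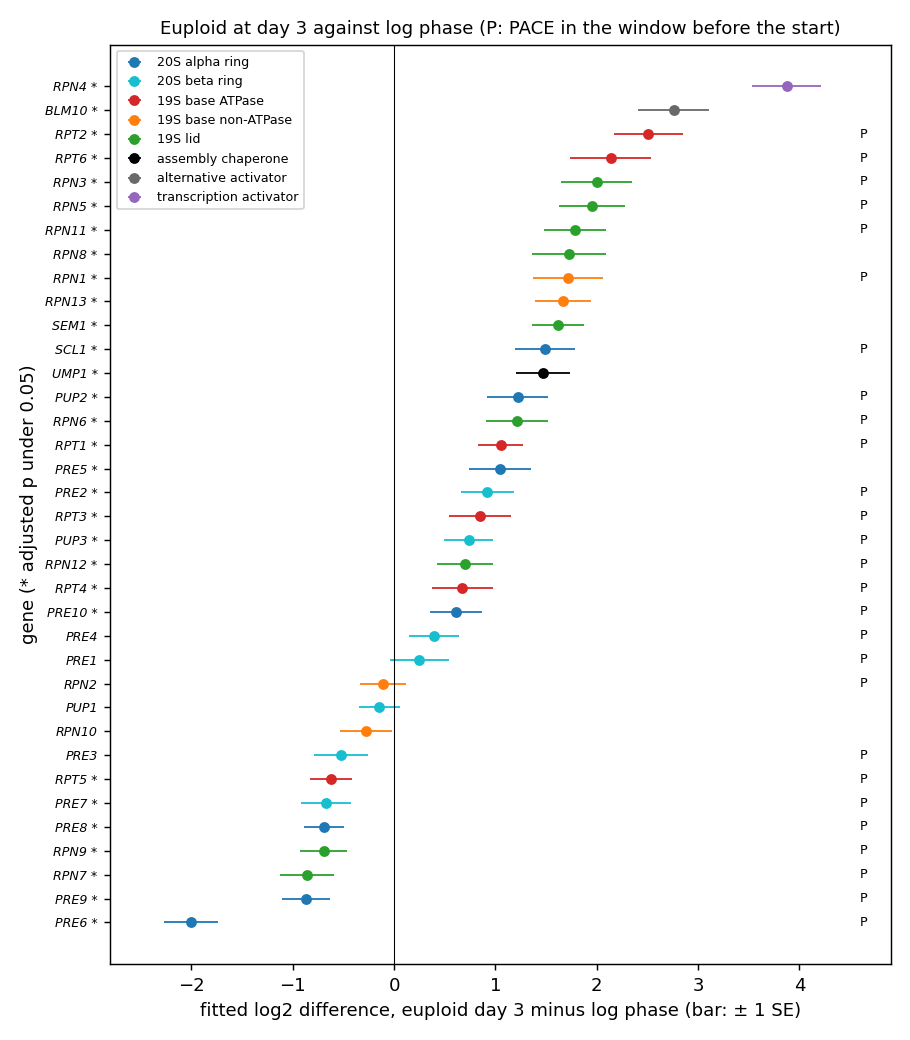
Fitted log2 difference between day 3 and log phase in euploid YPS1009 for each member, by role, with bars of 1 SE; an asterisk marks adjusted p under 0.05 and P marks the PACE element. Values run from -2.002 for PRE6 to 3.87 for RPN4, and within the alpha ring, the beta ring, the ATPases and the lid some genes lie above 0 and some below.

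Of the 27 genes with the PACE element, 16 were higher and 7 lower on day 3 of euploid, with a median of 0.70. Of the 6 subunit genes without it, 4 were higher and none lower, with a median of 1.33. The background over all genes was 38.7% higher and 41.4% lower. PRE6, PRE9 and RPN7, which fell, and RPT2, RPT6 and RPN3, which rose, all carry the element. Across the 33 subunits the day 3 change had a Pearson correlation with coding length of 0.15 and a Spearman correlation of 0.28, as a description over genes that share libraries.

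On day 7, 12 members were higher (background 37.5%) and 11 lower (38.2%) than in log phase, with a median of 0.26 against -0.02 over all genes. RPT2 rose by 2.07 ± 0.33 and PRE6, RPN9 and PRE3 fell by 1.63 ± 0.25, 1.33 ± 0.23 and 1.27 ± 0.27 (edgeR quasi-likelihood, adjusted p = 2.58e-06, 9.09e-07, 8.46e-06 and 1.22e-04). In the lid 5 genes were higher and 2 lower, and in the beta ring none was higher and 3 were lower (PRE3, PUP1 and PRE7). The count rested on the 2 day 7 cultures: it was 3 higher and 14 lower without culture 1, where the median turned to -0.46, and 19 higher and 9 lower with a median of 0.69 without culture 2. DESeq2's size factors gave 8 and 13, total counts 18 and 8, and the filter in every library 2 and 24. The summed level of 6 stationary-phase marker genes (SSA3, SPG1, SPG4, HSP12, HSP26 and SNZ1) also differed between these cultures, at 21371 and 5415 CPM, and so did that of the growth markers RPL3, RPS3 and CLN2, at 517 and 1099. Among them the chaperone gene SSA3 differed between cultures 1 and 2 at 2803 and 654 CPM, and HSP12, a heat shock gene, at 5947 and 1475. Their part in the result was not tested.

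The levels of the subunits were further apart within most libraries of days 3 and 7 than in log phase. The SD over the 33 subunits of log2 CPM per kb was 0.368 to 0.566 on day 1, 0.461 to 1.44 on day 3 and 0.587 to 1.73 on day 7. In euploid it was 1.10 and 0.98 in the 2 cultures of day 3, where the ratio of the highest subunit, RPT6, to the lowest, PRE6, was 20 and 13.3, against a ratio of highest to lowest of 2.56 and 2.97 in log phase. On day 7 the euploid SD was lower than on day 3, at 1.07 in culture 1 and 0.587 in culture 2. The SD of the fitted day 3 change was 1.10 over the subunits and 3.72 over the 2933 genes with a mean of at least 50 CPM. The lowest spread on day 3 was in YPS1009_Chr12, at 0.461 and 0.475, and the highest was in YPS1009_Chr4, at 1.44 and 1.35.

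**Figure D4:**
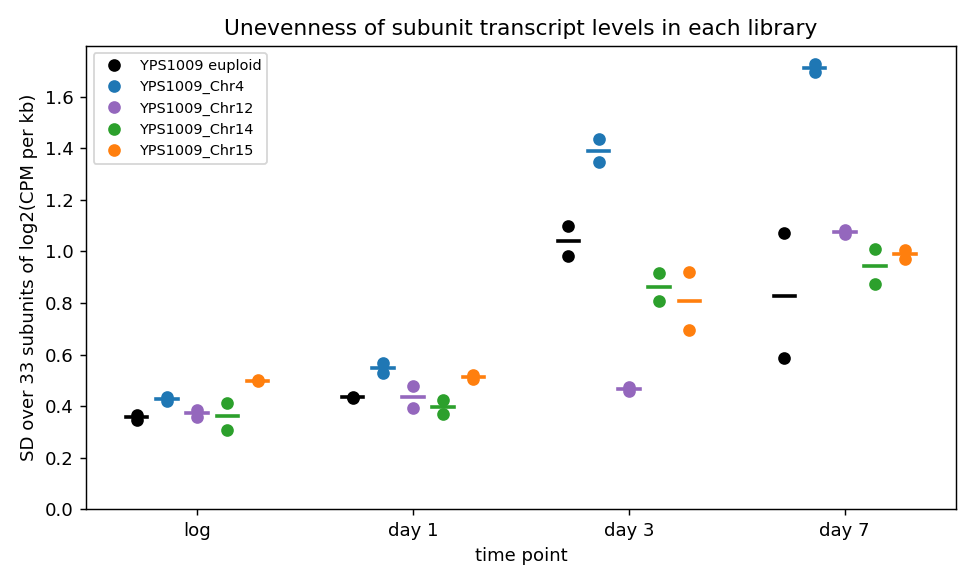
SD over the 33 subunits of log2 CPM per kb of coding length in each library, by time point, with 1 point for each culture, 1 colour for each strain and lines through the means of 2 cultures. The log-phase libraries lie between 0.307 and 0.501, and on day 3 YPS1009_Chr12 (0.461 and 0.475) lies below all other strains and YPS1009_Chr4 (1.44 and 1.35) above them.

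Of 28 other genes of the pathway, chosen by name, 15 were higher (background 34.3%) and 3 lower (35%) on day 1 of euploid, 19 (38.7%) and 3 (41.4%) on day 3, and 17 (37.5%) and 2 (38.2%) on day 7. The highest was SPG5, a proteasome regulator needed in stationary phase, which rose by 4.97 ± 0.43, 8.26 ± 0.49 and 7.72 ± 0.48 on the 3 days. FUB1, which encodes a proteasome-binding protein related to the mammalian inhibitor PI31, rose by 4.54 ± 0.35 on day 3 and 4.21 ± 0.34 on day 7, and TMA17, an assembly chaperone of the ATPase ring, by 3.42 ± 0.26 on day 1. POC4, a chaperone of alpha-ring assembly, fell by 1.87 ± 0.34, 3.37 ± 0.56 and 1.53 ± 0.36. Its level was 24.4 and 26.5 CPM in log phase and 2.06 and 2.74 on day 3, so the day 3 value rests on few counts. RAD6 fell by 1.04 ± 0.25 on day 1 and rose by 0.59 ± 0.25 on day 3 and 1.26 ± 0.23 on day 7. The core assembly chaperone gene ADD66 fell by 1.05 ± 0.34 on day 3. UBP6, a deubiquitinating enzyme of the proteasome, rose by 0.80 ± 0.23 on day 1 and fell by 0.82 ± 0.27 on day 3 and 1.43 ± 0.26 on day 7. RAD6 encodes the ubiquitin-conjugating enzyme that marks Rpn4 for degradation.

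YPS1009_Chr4 carries 7 members on its duplicated chromosome IV: the activator RPN4, the ATPases RPT2 and RPT3 and the lid genes RPN5, RPN6, RPN9 and SEM1. In log phase these 7 were the members called higher than euploid and none was lower (background 7.45% and 2.2%). Their median log2 difference was 1.08, with a range from 1.04 for RPN5 to 2.13 for RPN4, beside 0.81 over the 766 genes of chromosome IV and 0.13 over the 29 members on other chromosomes. RPN4 was at 190.5 and 177 CPM, above both euploid cultures, and differed by 2.13 ± 0.32 (edgeR quasi-likelihood, adjusted p = 6.51e-05). RPT2 differed by 1.35, RPN9 by 1.14, RPT3 by 1.08, RPN6 by 1.08 and SEM1 by 1.07. UMP1 (0.22) and the 3 lowest, RPN10 (-0.16), BLM10 (-0.14) and PUP3 (-0.06), were not called. With any 1 of the 4 cultures left out, 2 to 4 members passed the test, all higher.

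On day 1, 6 of the 7 were higher again (RPT2, RPT3, RPN9, RPN6, RPN5 and SEM1, by 0.95 to 1.18), and no other member was called (backgrounds 11.3% and 5.66%). RPN4 was at 379 and 387 CPM against 322 and 308 in euploid, a difference of 0.28 that was not called. The lowest values, -0.64 for BLM10, -0.18 for RPN3 and -0.15 for PRE2, and UMP1 at -0.02 were not called. Without euploid culture 1 only 1 member passed on day 1, and without YPS1009_Chr4 culture 1 it was 2. On day 3, 14 members were higher (17.7%) and 1 lower (13.3%), of which 8 and 1 lay on other chromosomes. RPT2 was highest at 2.16, then RPN13 at 1.63 and RPN5 at 1.52, with RPN4 at 1.49. RPN9 (1.46), SEM1 (1.40) and RPN6 (1.2) were higher too and RPT3 (0.62) was not called. UMP1, at 112 and 101 CPM against 181 and 186, was lower in both cultures and differed by -0.78 ± 0.28 (adjusted p = 0.0343), and RPN12 (-0.73) and BLM10 (-0.65) were not called. The median over members was 0.58 and over all genes 0.00, but scaling by total counts gave 4 higher and 13 lower with medians of -0.24 and -0.80, and the filter in every library 13 and 6. Without euploid culture 1 of day 3 the count was 9 higher and none lower, and the UMP1 call was lost whichever of the 4 cultures was left out.

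On day 7 the members of YPS1009_Chr4 stood furthest above euploid, with 23 higher (22.6%) and 2 lower (31.8%) and a median of 1.01 against -0.59 over all genes. RPN4 was at 6996 and 4302 CPM against 561 and 350.2 in euploid, RPT2 at 3513 and 3041 against 559.6 and 239, and RPN13 (YLR421C), on chromosome XII, at 994 and 970.1 against 169 and 80.5. No culture of the aneuploid overlapped euploid in these 3 genes, and they differed by 3.64 ± 0.33, 3.04 ± 0.35 and 3.01 ± 0.29 (edgeR quasi-likelihood, adjusted p = 6.08e-10, 2.86e-08 and 1.56e-09). The other members on chromosome IV were at 2.52 (SEM1), 1.99 (RPN5), 1.73 (RPN6), 1.71 (RPN9) and 1.07 (RPT3). The 7 on chromosome IV had a median of 1.99 and the 29 elsewhere 0.71, where 16 were higher and 2 lower, beside medians of 0.43 over the genes of chromosome IV and -0.73 over genes of other chromosomes. UMP1 was at 44.2 and 35.6 CPM, below both euploid cultures (119.7 and 58.5), and differed by -1.11 ± 0.35 (adjusted p = 0.00869). RPT5, which carries the PACE element, was also lower, with a difference of -0.79 ± 0.27 (adjusted p = 0.0166), and PRE6 (-0.37) and BLM10 (0.71) were not called. Without euploid culture 1 the counts were 26 higher and none lower, and without euploid culture 2 they were 13 and 2 with a member median of 0.62. Total counts turned them to 6 higher and 24 lower, with medians of -0.84 over members and -2.48 over all genes, and the filter in every library gave 12 and 9. Of the 6 stationary-phase markers 4 were above both euploid cultures, with sums of 58233 and 47946 CPM against 21371 and 5415, and all 3 growth markers were below both, and their part in the result was not tested.

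The change from log phase was itself compared with that of euploid, with the interaction term of the same fit. To day 1 no member had a higher change in YPS1009_Chr4 than in euploid and 1 had a lower change, RPN4 at -1.85 ± 0.43 (backgrounds 1.96% and 1.43%). To day 3, 2 were higher, RPN13 at 1.51 and PRE7 at 1.29, and none lower (11.3% and 8.7%). To day 7, 13 were higher and 2 lower (16.6% and 24.2%), led by RPN13 (2.89), RPT6 (2.48) and SCL1 (1.96), with UMP1 (-1.34) and RPT5 (-0.91) lower (edgeR quasi-likelihood, adjusted p = 2.02e-06, 8.35e-04, 5.69e-04, 0.0156 and 0.0297). Under total counts the counts of days 3 and 7 turned to 0 and 19, and to 1 and 30. At day 7 the counts were 24 and 0 without euploid day 7 culture 1 and 8 and 2 without culture 2, 7 and 1 without YPS1009_Chr4 day 7 culture 1, and 8 and 1 or 7 and 2 without log-phase culture 2 of euploid or of YPS1009_Chr4. The RPN4 call of day 1 was lost without either euploid log-phase culture, either YPS1009_Chr4 day 1 culture or YPS1009_Chr4 log-phase culture 1.

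**Figure D5:**
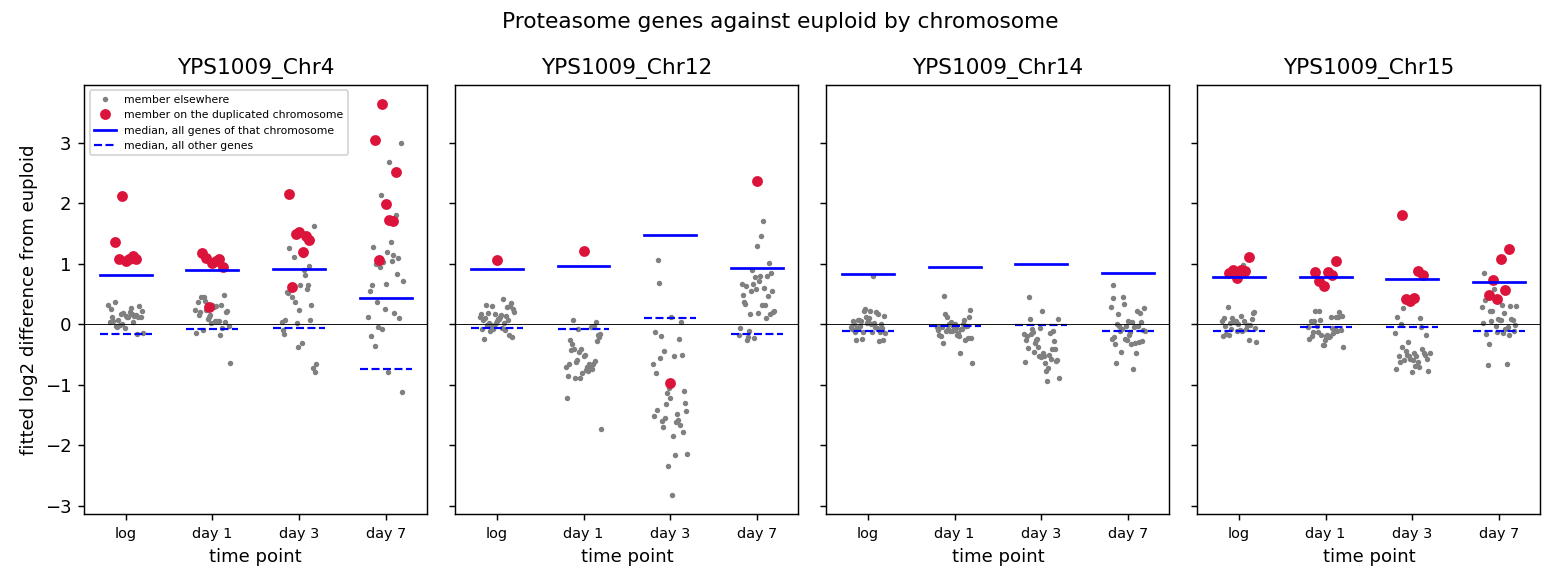
Fitted log2 difference to euploid of each member in each aneuploid strain and time, split into members on the duplicated chromosome and members elsewhere, with solid lines at the median of all genes of the duplicated chromosome and dashed lines at the median of all other genes. The 7 chromosome IV members of YPS1009_Chr4 lie at 1.04 or more in log phase, and RPN13, the 1 member on chromosome XII, lies at -0.98 on day 3 of YPS1009_Chr12 below the chromosome's median of 1.47.

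YPS1009_Chr12 carries 1 member on its duplicated chromosome, the ubiquitin receptor gene RPN13. In log phase RPN13 was at 137 and 129.9 CPM against 63.0 and 64.1 in euploid, and it was the 1 member called, higher by 1.07 ± 0.27 and with none lower (backgrounds 5.53% and 2.61%). The other high and low values, RPN4 (0.42), RPN12 (0.35), UMP1 (0.26), BLM10 (0.21), PRE5 (-0.25), SEM1 (-0.20) and RPN10 (-0.18), were not called. With any 1 culture left out, no member passed the test. On day 1, 1 member was higher (RPN13, 1.22, background 16.2%) and 10 were lower (14.8%), with a median of -0.56 against -0.01 over all genes. BLM10 was at 452 and 345 CPM against 1299.9 and 1331 in euploid. Both cultures were far below euploid and near their own log-phase values of 435 and 416, and the gene differed by -1.72 ± 0.34 (edgeR quasi-likelihood, adjusted p = 2.44e-04). PRE2 (-1.21) and RPT1 (-0.89) were next, and RPN4 (-0.70), UMP1 (-0.16), RPN10 (0.05) and PRE8 (0.08) were not called. Leaving out 1 culture gave 3 to 7 called members. On that day 5 of the 6 stationary-phase markers were below both euploid cultures, with sums of 949 and 1268 CPM against 13749 and 15993, and 2 of the 3 growth markers were above both, with sums of 3113 and 3273 against 2004 and 1605, and their part in the result was not tested.

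On day 3 most members were lower in YPS1009_Chr12 than in euploid: 27 of 36 were lower (background 31.5%) and 2 higher (38.4%), with a median of -1.26 against 0.22 over all genes. The ATPase gene RPT6 was at 94.3 and 101 CPM against 721 and 658 in euploid, RPT2 at 127 and 85.7 against 541 and 538, and SCL1 at 90.7 and 89.97 against 312 and 273. The aneuploid cultures lay below euploid in all 3 genes with no overlap. RPT6 differed by -2.82 ± 0.41, RPT2 by -2.34 ± 0.34, the lid gene RPN3 by -2.16 ± 0.35 and SCL1 by -1.70 ± 0.30 (edgeR quasi-likelihood, adjusted p = 8.48e-07, 7.75e-07, 4.46e-06 and 1.61e-05). BLM10 was at 587 and 544 CPM against 2578 and 2421, RPN4 at 195 and 206 against 661 and 570.3, and UMP1 at 67.5 and 68.1 against 181 and 186. All 3 were lower in both cultures, with differences of -2.14 ± 0.34, -1.62 ± 0.31 and -1.44 ± 0.27. By role, 5 of 7 alpha-ring, 4 of 7 beta-ring, 5 of 6 ATPase, 3 of 4 other base and 7 of 9 lid genes were lower.

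The exceptions of day 3 were 2 genes that had fallen in euploid. PRE6 was at 51.0 and 62.5 CPM in YPS1009_Chr12 against 22.7 and 31.1 in euploid, both higher, with a difference of 1.07 ± 0.27 (edgeR quasi-likelihood, adjusted p = 0.00104), and PRE7 differed by 0.69 ± 0.25 (adjusted p = 0.014), with RPT5 next at 0.12, not called. RPN13 was at -0.98 ± 0.28 while the 490 genes of its duplicated chromosome had a median of 1.47. Leaving out 1 culture gave 26 to 28 called members. Total counts gave 4 higher and 21 lower with medians of -0.67 and 0.81, DESeq2's size factors 2 and 24 with -1.07 and 0.42, and the filter in every library 9 and 15 with -0.31 and 0.03.

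Markers of culture state moved with this result. On day 3 all 6 stationary-phase markers were below both euploid cultures, with summed levels of 2673 and 2882 CPM against 31406 and 24688, and all 3 growth markers were above both, with sums of 2590.5 and 3040.1 against 259.8 and 410.3. SSA3 was at 473 and 581 CPM in YPS1009_Chr12 against 6113 and 4998 in euploid, and HSP12 at 235 and 321 against 8443 and 8020.2. The ribosomal protein gene RPL3 was at 1836 and 2215 CPM against 94.8 and 155. Their part in the lower levels of the members was not tested. On day 7, 8 members were higher (background 17.9%) and none lower (15.4%), with a median of 0.51 against -0.08. RPN13 was highest at 2.38, then RPN4 at 1.70 (CPM of 2069 and 892 against 561 and 350.2) and RPN2 at 1.47. The 2 cultures differed from each other, with culture 2 between the euploid cultures in RPT2 (947 and 419 CPM) and SCL1 (334 and 155 CPM). UMP1 (0.20), BLM10 (0.22) and the 3 lowest, PRE8 (-0.27), RPT1 (-0.23) and PRE9 (-0.21), were not called. The count was 25 higher and none lower without euploid culture 1 (median 1.08) and 5 higher and 2 lower without euploid culture 2 (0.10), 3 and 1 without the strain's own culture 1 (-0.02), 21 and 0 without its culture 2 (0.85), and total counts gave 4 and 9. Of the 6 stationary-phase markers 3 were above both euploid cultures, with sums of 52503 and 22596 CPM against 21371 and 5415. None of the 3 growth markers was below both or above both, with sums of 586 and 1644 CPM against 517 and 1099. The part of these markers in the result was not tested.

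Compared with the euploid change, none of the members changed upward in YPS1009_Chr12 from log phase to day 1 and 3 changed downward, BLM10 (-1.93), PRE2 (-1.39) and RPN2 (-0.93), against backgrounds of 9.23% and 6.74%. To day 3, 24 changed downward relative to euploid (26.1%) and 1 upward (33.2%), with a median of -1.26 against 0.20 over all genes. RPT6 (-2.91), RPT2 (-2.51) and BLM10 (-2.35) were lowest and PRE6 (0.96) was the 1 upward (edgeR quasi-likelihood, adjusted p = 7.03e-05, 4.96e-05, 1.20e-04 and 0.0197). To day 7, 5 were upward (10%), among them RPN2 (1.32), RPN13 (1.31) and RPN4 (1.29), and none downward (8.05%), whereas total counts gave none and 8. Leaving out 1 culture gave 1 to 22 called at day 7, the highest without euploid day 7 culture 1 and 7 without YPS1009_Chr12 day 7 culture 2, and 3 or fewer without any other.

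YPS1009_Chr14 carries no member on chromosome XIV. By edgeR's quasi-likelihood test none was called in log phase (backgrounds 4.45% and 0.563%), on day 1 (4.95% and 1.79%) or on day 7 (7.21% and 9.11%). At an unadjusted p under 0.05 these counts were 1, 1 and 4, and DESeq2 called 0, 0 and 3. On day 3, 1 was lower and none higher (6.31% and 8.94%): RPN4, at 319.8 and 325 CPM against 661 and 570.3 in euploid. Both cultures were below euploid, and the difference was -0.93 ± 0.31 (edgeR quasi-likelihood, adjusted p = 0.038). BLM10 was at 1300.0 and 1397 CPM against 2578 and 2421 and its difference of -0.89 missed the threshold (adjusted p = 0.0649), as did UMP1 (0.08), RPN3 (-0.78), RPT5 (0.23) and PRE6 (0.45). Without any 1 culture, RPN4 was not called, and total counts gave 3 higher and none lower. In log phase RPN4 was highest at 0.79 and RPN10 lowest at -0.27, on day 1 PRE8 highest at 0.47 and BLM10 lowest at -0.64, and on day 7 PRE3 highest at 0.66 and RPN4 lowest at -0.73, none of them called. Without euploid day 7 culture 1 the count of day 7 was 16 higher and 1 lower, and without culture 2 it was 0 and 6.

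Relative to the euploid change from log phase, RPN4 was the 1 member of YPS1009_Chr14 that differed, at -1.73 ± 0.44 to day 3 (backgrounds 1.47% lower and 1.96% higher) and -1.53 ± 0.44 to day 7 (2.8% and 1.55%). The adjusted p was 0.0241 and 0.0403 by edgeR's quasi-likelihood test. The day 3 call was lost in 6 of 8 fits that left out 1 culture, and that of day 7 in 5 of 8, while 8 upward and 1 downward were called at day 7 without euploid day 7 culture 1. To day 1 no member was called (0.426% and 0.648%), with 1 at an unadjusted p under 0.05 and 1 called by DESeq2.

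YPS1009_Chr15 carries 6 members on chromosome XV: the alpha-ring genes PRE6 and PRE10, the beta-ring gene PUP1, the ATPase genes RPT4 and RPT5, and the lid gene RPN8. In log phase all 6 were higher than euploid, at 0.77 (PUP1), 0.84 (PRE6), 0.88 (RPT5), 0.89 (PRE10), 0.90 (RPT4) and 1.11 (RPN8). Their median of 0.89 stood beside 0.78 over the 532 genes of the chromosome and -0.00 over the 30 members elsewhere. The only other called member was RPN4, on chromosome IV, at 83.4 and 83.0 CPM against 43.1 and 40.8, higher in both cultures by 0.99 ± 0.31 (edgeR quasi-likelihood, adjusted p = 0.0284), so that 7 were higher and none lower (backgrounds 11.4% and 3.7%). With 1 culture left out, 1 to 3 passed. UMP1 (-0.06), BLM10 (-0.29) and RPN10 (-0.25) were not called. On day 1, PRE6 (0.87) and RPT5 (0.82) were called higher and none lower (4.42% and 0.273%), and RPN8 (1.05), RPT4 (0.86), PRE10 (0.72), PUP1 (0.63), RPN4 (-0.19), UMP1 (0.14) and BLM10 (-0.37) were not. Without any 1 culture none passed.

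On day 3, 2 members were higher (17.3%) and 2 lower (11.6%). PRE6 was at 95.3 and 95.2 CPM against 22.7 and 31.1 in euploid, above it in both cultures by 1.82 ± 0.27, more than its chromosome's median of 0.75. RPT5 was higher by 0.89 ± 0.21, and UMP1 (-0.77) and PRE2 (-0.74) were lower (edgeR quasi-likelihood, adjusted p = 8.54e-06, 0.00235, 0.0294 and 0.033). RPN8 (0.82), RPT4 (0.44), PRE10 (0.42), PUP1 (0.39), RPN4 (-0.53), BLM10 (-0.47) and RPT6 (-0.78) were not called. The 2 lower calls were absent under 3 other scalings, which gave 4, 5 and 7 higher (DESeq2's size factors, TMM over genes of no duplicated chromosome, and total counts), and without euploid culture 1 or YPS1009_Chr15 culture 2 a single member passed, and 2 without euploid culture 2. On day 7, 5 were higher (12.5%) and 1 lower (17.3%): RPN8 (1.25), RPT4 (1.08), PRE3 (0.85), PRE10 (0.73) and RPT5 (0.57) against PRE7 (-0.67). PRE6 (0.49), PUP1 (0.42), RPN4 (-0.14), UMP1 (-0.02) and BLM10 (0.30) were not called. Without euploid culture 1 the count was 23 higher and 2 lower, without euploid culture 2 none and 1, without YPS1009_Chr15 culture 1 none and none, and without its culture 2 it was 3 and none.

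Relative to the euploid change, PRE6 changed upward by 0.97 ± 0.35 and RPN4 downward (-1.51 ± 0.43) from log phase to day 3 in YPS1009_Chr15, the 2 members called (backgrounds 14.3% higher and 10.6% lower; edgeR quasi-likelihood, adjusted p = 0.0404 and 0.0115). To day 7, 1 was downward, PRE7 at -0.96 (adjusted p = 0.0492), and none upward (9.48% and 4.13%). At day 7 the count was 13 upward and 1 downward without euploid day 7 culture 1, and none in 6 of the other 7 fits that left out 1 culture. At day 3 neither member was called without euploid day 3 culture 1 or YPS1009_Chr15 day 3 culture 2, and 1 member in 5 of the other 6 fits. To day 1 none was called (1.26% and 2.54%), with 1 at an unadjusted p under 0.05 and 0 by DESeq2.

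Among the 28 other pathway genes, day 3 of YPS1009_Chr12 had 4 higher (background 38.4%) and 15 lower (31.5%) than euploid, with SPG5 at -2.77 and YAP1, an activator of RPN4 transcription, at -2.72, and POC4 (2.26) and its partner IRC25 (1.47) higher. IRC25 lies on the duplicated chromosome XII, whose genes had a median of 1.47 on that day. Day 1 of that strain had 1 higher (16.2%) and 8 lower (14.8%), with the proteasome-binding protein gene ECM29 (-1.38) and NPL4 (-1.08) lowest and PBA1 (0.65), on chromosome XII, higher. YPS1009_Chr4 had 3 higher (7.45%) and 0 lower (2.2%) in log phase, the genes on chromosome IV being CDC48 (1.26) and TMA17 (0.92), and 18 higher (22.6%) and 5 lower (31.8%) on day 7. On that day CDC48, the unfoldase that hands ubiquitinated proteins to the proteasome, was highest (3.13), followed by RAD6 (2.98), and STS1, which places proteasomes in the nucleus, was lowest (-3.08), with IRC25 at -2.31. In YPS1009_Chr14 at most 3 of the 28 were called at any time, with 1 higher (8.94%) and 2 lower (6.31%) on day 3, and in YPS1009_Chr15 at most 8, with 3 higher (17.3%) and 5 lower (11.6%) on day 3.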

How the data were processed

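The deposited table of the authors holds unnormalized read counts for each gene: stranded, Ribo-Zero-depleted total RNA was mapped with bwa-meme to S288c substituted with YPS1009 SNPs and counted with HT-Seq (the submitters' notes list Trimmomatic 0.39, BWA 0.7.12-r1039 and HTSeq 0.7.2). The genome release and the strand setting are not given in the sources used here, and no member overlaps another annotated gene. Groups came from the sample labels, karyotypes and ho alleles from the study's strain list. Days 1, 3 and 7 are 24, 72 and 168 hours, in the labels since cultures were started and in the Methods since log-phase cells were taken. The study scaled its libraries to added Sz. pombe cells. That scale was not used here, so counts were scaled by TMM.

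A model was fitted in edgeR 4.0.16 (with limma 3.58.1, in R 4.3.3 and with a prior count of 0.125) to the 5864 of 6714 genes that had 10 counts or more in 2 or more libraries, 1 coefficient for each strain and time point over 40 libraries of 725316 to 7036849 counts. The quasi-likelihood test was two-sided, with Benjamini-Hochberg adjustment over all genes at 0.05, and the SE is the log2 difference over the square root of F. RefSeq symbols matched 6025 genes. All replicate pairs differed by more than sampling noise (chi-square per degree of freedom 2.98 to 65.4). The script was tested on simulated data. It called 43% of 2-fold changes for euploid day 3 against log phase and 22.2% for YPS1009_Chr4 against euploid on day 7. For YPS1009_Chr12 against euploid on day 3 it called 41%. False calls were 3.08%, 5.10% and 6.72% of all calls, in that order. Each simulation changed only 200 genes, whereas 2270 genes were called higher and 2428 lower on day 3 of euploid. With fewer changed genes the adjusted threshold is stricter, so these shares do not give the share of 2-fold differences missed in the data. A 2-fold difference could still go uncalled, as that of RPN8 (1.05) did on day 1 of YPS1009_Chr15. Alternatives were other scalings, filters and fits, DESeq2 1.42.0, and each culture left out.

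Named in each comparison were RPN4, UMP1 and BLM10, members on the duplicated chromosome, the 3 highest and 3 lowest members, and of other pathway genes the 2 highest and 2 lowest called, and in comparisons with few calls and in those of changes some of these were left out. SCL1, chosen after its values were seen, and the class members named by role are outside that rule. The members and lists were chosen with earlier results of these data known. Promoter windows were cut from the R64 RefSeq genome by its annotation, since no table of promoters was used, and no protein sequences are printed.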

Additional observations from a re-analysis of the deposited data

Results flagged for a closer look

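For the activator RPN4, the chaperone gene UMP1 and the alternative activator gene BLM10, the change from log phase was set against that of euploid by the interaction term of edgeR's quasi-likelihood fit, with Benjamini-Hochberg adjustment over all genes. In 11 cases the 2 changes differed. The change of RPN4 was lower than in euploid to day 1 in YPS1009_Chr4 (-1.85 ± 0.43, log2 difference of changes ± SE, adjusted p = 0.0149), where its log-phase level was already higher, and higher to day 7 (1.51 ± 0.43, adjusted p = 0.00709), the second turning to -0.61 under total counts. In YPS1009_Chr12 it was lower to day 3 (-2.03 ± 0.44, adjusted p = 2.84e-04) and higher to day 7 (1.29 ± 0.44, adjusted p = 0.0387). The call to day 7 was lost under total counts, where no member of that strain was called upward. In YPS1009_Chr14 it was lower to days 3 and 7 (-1.73 ± 0.44 and -1.53 ± 0.44, adjusted p = 0.0241 and 0.0403), and in YPS1009_Chr15 to day 3 (-1.51 ± 0.43, adjusted p = 0.0115).

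The change of BLM10 was lower than in euploid in YPS1009_Chr12 to day 1 (-1.93 ± 0.47, adjusted p = 0.00412) and day 3 (-2.35 ± 0.47, adjusted p = 1.20e-04). That of UMP1 was lower in YPS1009_Chr12 to day 3 (-1.69 ± 0.37, adjusted p = 3.07e-04) and in YPS1009_Chr4 to day 7 (-1.34 ± 0.43, adjusted p = 0.0156). Of the 8 fits that left out 1 culture, the call was lost in 5 for RPN4 in YPS1009_Chr4 to day 1, in YPS1009_Chr12 to day 7 and in YPS1009_Chr14 to day 7, in 6 for RPN4 in YPS1009_Chr14 to day 3, and in 2 for RPN4 in YPS1009_Chr15 to day 3 and for UMP1 in YPS1009_Chr4. With 2 cultures in a group, no single culture was tested as standing apart. The 12 comparisons of changes share the euploid libraries, so these values are not independent of each other.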

How the results depend on the processing

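Levels and differences were relative to the rest of the transcriptome, 2 cultures were sampled per group, and the libraries of days 3 and 7 were the shallowest, so a difference that missed the threshold there may not have been detectable at this depth. Of the 88 named gene differences tested again, DESeq2's Wald test kept the call of 86 and lost 2, DESeq2's size factors kept 83 and lost 5, total counts kept 77, lost 9 and turned 2, and fits of only the groups compared kept 68 and lost 20. Leaving out 1 culture lost the call in 119 of 452 fits of a named gene. The count of members called, 1 number per comparison, moved by more than 1.5 times in the cases below, and "change" there means a strain's change from log phase set against that of euploid. The cause was not tested.

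With total counts, the counts were 11 for euploid day 1, 6 and 13 for YPS1009_Chr12 days 1 and 7, 1, 3 and 4 for YPS1009_Chr14 in log phase and on days 3 and 7, and 6 and 7 for YPS1009_Chr15 days 1 and 3. For changes they were 19 and 31 for YPS1009_Chr4 days 3 and 7, 8 for YPS1009_Chr12 day 7, 1 and 2 for YPS1009_Chr14 days 1 and 3, and 1 and 2 for YPS1009_Chr15 days 1 and 7. That scaling also turned the sign of the member median on day 3 of YPS1009_Chr4 (-0.24) and YPS1009_Chr14 (0.10), on day 7 of YPS1009_Chr4 (-0.84), and of the change to day 3 in YPS1009_Chr4 (-0.81) and YPS1009_Chr14 (0.0725), and the change to day 7 of RPN4 (-0.61) and SCL1 (-0.0501) in YPS1009_Chr4. The member median less that of all genes moved less with the scaling: on day 3 of euploid it was 1.04 and ran from 0.95 to 1.14 under the other scalings and fits, on day 7 of YPS1009_Chr4 it was 1.60 (1.38 to 1.64, but 0.997 to 1.85 with 1 culture left out) and on day 3 of YPS1009_Chr12 -1.49 (-1.49 to -1.39).

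The filter of 10 counts in every library gave, in place of those, -0.59, 0.34 and -0.34, and turned the euploid day 3 median to -0.55. Its counts were 23 for euploid day 1, 13 for YPS1009_Chr12 day 7, 1, 2 and 6 for YPS1009_Chr14 in log phase and on days 3 and 7, and 5 and 10 for YPS1009_Chr15 days 1 and 7. For changes they were 7 for YPS1009_Chr4 day 3, 6 for YPS1009_Chr12 day 1, 1 and 2 for YPS1009_Chr14 days 1 and 7, and 1, 1 and 4 for YPS1009_Chr15 days 1, 3 and 7. With no filter the changes counted 4 (YPS1009_Chr4 day 3), 6 (YPS1009_Chr12 day 1) and 0 (YPS1009_Chr15 day 7), the last also with DESeq2's size factors (0). TMM over genes of no duplicated chromosome gave 0 for YPS1009_Chr14 day 3 and 6 for YPS1009_Chr15 day 1.

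DESeq2's Wald test gave 15 for YPS1009_Chr12 day 7, 3 and 3 for YPS1009_Chr14 days 3 and 7, and 6 and 7 for YPS1009_Chr15 days 1 and 3. Its changes were 8 and 25 for YPS1009_Chr4 days 3 and 7, 12 for YPS1009_Chr12 day 1, 1 for YPS1009_Chr14 day 1 and 3 for YPS1009_Chr15 day 7. Fits of only the groups compared, whose spread rests on few cultures, gave 18 and 5 for euploid days 1 and 7, 23 and 9 for YPS1009_Chr4 in log phase and on day 7, 9, 22 and 0 for YPS1009_Chr12 in log phase and on days 1 and 7, 1, 1 and 11 for YPS1009_Chr14 in log phase and on days 1 and 3, and 14, 6, 7 and 0 for YPS1009_Chr15 in log phase and on days 1, 3 and 7. For changes these fits gave 2, 10 and 2 for YPS1009_Chr4 days 1, 3 and 7, 26 and 0 for YPS1009_Chr12 days 1 and 7, 1, 10 and 0 for YPS1009_Chr14 days 1, 3 and 7, and 1 and 0 for YPS1009_Chr15 days 1 and 7. Without the length term the median SD over subunits in log phase was 0.241 in place of 0.400.

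Deviations of cultures with the same replicate number had a median correlation of 0.02 over 19 comparisons, many of which share euploid cultures (from -0.52 to 0.38). The sources used here do not say what the numbers pair, so they were not taken as pairs. On day 7 the member median was lower in culture 2 than in culture 1 in euploid (-1.02), YPS1009_Chr12 (-1.05), YPS1009_Chr4 (-0.40) and YPS1009_Chr15 (-0.27) and higher in YPS1009_Chr14 (0.17). Whether these deviations are shared was not tested. With a replicate block the counts were 2 for YPS1009_Chr14 day 3 and 4 for the change of YPS1009_Chr4 to day 3, and the block changed no other count by over 1.5 times.

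Leaving out 1 culture, whose lone partner is then assumed to vary like the other groups, gave counts from 3 to 7, 22 to 27 and 17 to 28 for euploid days 1, 3 and 7. In log phase and on days 1, 3 and 7 they ran from 2 to 4, 1 to 6, 9 to 11 and 15 to 26 for YPS1009_Chr4, 0 to 0, 3 to 7, 26 to 28 and 4 to 25 for YPS1009_Chr12, 0 to 0, 0 to 0, 0 to 0 and 0 to 17 for YPS1009_Chr14, and 1 to 3, 0 to 0, 1 to 3 and 0 to 25 for YPS1009_Chr15. For changes to days 1, 3 and 7 they ran from 0 to 1, 2 to 3 and 8 to 24 for YPS1009_Chr4, 2 to 2, 21 to 24 and 1 to 22 for YPS1009_Chr12, 0 to 0, 0 to 1 and 0 to 9 for YPS1009_Chr14, and 0 to 0, 0 to 2 and 0 to 14 for YPS1009_Chr15.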

Other observations

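Genes whose products act on Rpn4 protein in yeast, the ubiquitin ligase gene UBR2, its partner gene MUB1 and the conjugating enzyme gene RAD6, differed in level between strains on day 3. UBR2 was at 318 and 285 CPM in YPS1009_Chr15 against 57.7 and 76.8 in euploid, higher in both cultures by 2.16 ± 0.21 (log2, SE, edgeR quasi-likelihood, adjusted p = 3.21e-09). UBR2 also differed in YPS1009_Chr12 (1.07 ± 0.21), which carries it on its duplicated chromosome. MUB1, at 601 and 629.7 CPM in euploid, was lower in YPS1009_Chr12 (113 and 108 CPM, -2.48 ± 0.31, adjusted p = 7.82e-08) and YPS1009_Chr14 (-1.21 ± 0.30, adjusted p = 0.00711) and higher in YPS1009_Chr4 (1438 and 1272 CPM, 1.14 ± 0.30, adjusted p = 0.00356). RAD6 was higher in YPS1009_Chr4 (2.06 ± 0.25, adjusted p = 2.69e-07) and lower in YPS1009_Chr12 (-1.06 ± 0.26, adjusted p = 5.94e-04). In YPS1009_Chr12 the log-phase level of UBR2, on chromosome XII, was higher by 0.97 ± 0.19. Other pathway genes at the ends of their comparisons were CUZ1 in YPS1009_Chr14 in log phase (0.97) and in YPS1009_Chr15 on day 3 (1.98), ADD66 in YPS1009_Chr14 on day 3 (1.73), and TMA17 in YPS1009_Chr15 in log phase (1.29) and on day 7 (1.77). CUZ1 lies on chromosome XIV, duplicated in YPS1009_Chr14, whose genes had a median of 0.83 in log phase.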
